A study of Mus musculus with 21 samples.

Results

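The transcripts of 9 chemokine system genes were followed through 7 sorted populations of mouse bone marrow progenitors. The genes code for 5 receptors (*Ccr1*, *Ccr2*, *Cx3cr1*, *Cxcr2* and *Cxcr4*) and 4 ligands (*Ccl3*, *Ccl4*, *Ccl6* and *Ccl9*). They were chosen by name and are 9 of the 47643 genes in the count table, and all 9 were measured in all 21 libraries, 3 for each population.

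Chemokines are small secreted proteins that bind receptors coupled to G proteins, and cells that carry the receptor move along the chemokine gradient. In the marrow, CXCR4 holds hematopoietic cells near stromal cells that make its ligand CXCL12, CCR2 lets monocytes leave for the blood, and CXCR2 does the same for neutrophils. CCL3 and CCL4, also known as MIP-1α and MIP-1β, are inflammatory chemokines, and CCL3 also restrains the cycling of hematopoietic stem and progenitor cells. CCL6 and CCL9 are myeloid chemokines of rodents that signal mainly through CCR1, which is also a receptor of CCL3.

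All cells came from the marrow of young adult C57/B6 mice, with no treatment or transgene named, and were sorted as lineage-negative, SCA-1-negative, C-KIT-positive and CD34-positive cells. Granulocyte-monocyte progenitors (GMPs) were CD16/32-positive within this gate and common myeloid progenitors (CMPs) were CD16/32-negative. Each was sequenced in bulk and in fractions sorted by CD62L, an adhesion molecule of the cell surface, which gave CD62L-high, CD62L-low, CD62L-neg and bulk GMPs and bulk, CD62L-high and CD62L-low CMPs. These are the names in the sample labels. The study itself calls the CD62L-low GMPs CD62L-int and the CD62L-low CMPs CD62L-neg. The CD62L-intermediate part of the CMPs, which bulk CMPs hold, is not among these libraries, and the GMP fractions are narrow slices of the CD62L range, so bulk GMPs hold cells that none of the fractions does. Nothing states that the 3 libraries of a population came from different mice, so p-values measure the spread between these libraries, which may be technical.

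Libraries held 6145834 to 15263573 counts. Depth went with population, at 6145834 to 7509818 counts in bulk and CD62L-low CMPs and 11360760 to 15263573 counts in the others. The part of depth in differences between these populations was not tested. Levels are given as CPM, a gene's count relative to the total of its library, after scaling by trimmed mean of M values (TMM) over all 21 libraries. CD62L-low CMP replicate 1 stood apart from the other 2 libraries of its population, with more *Cx3cr1*, *Ccl3*, *Ccl4* and *Ccl9*. In bulk CMP replicate 2, 3 gene models took 61.0% of the counts, against 22.4% to 41.1% in the others, the highest of which was CD62L-high GMP replicate 1. The study left out a bulk CMP sample for a low mapping rate without naming it, and all 3 bulk CMP libraries are used here. Values without one of these 3 libraries are given where leaving it out changed a call or moved a fold change most.

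Among the receptors, *Ccr2* showed the widest range with the CD62L sort. CD62L-high GMPs held 173, 121 and 116 CPM of *Ccr2*, CD62L-low GMPs 80.2, 65.0 and 59.95 CPM, CD62L-neg GMPs 7.18, 7.15 and 5.13 CPM and bulk GMPs 82.1, 62.1 and 68.6 CPM. In CMPs, the values were 41.8, 26.6 and 32.1 CPM in bulk, 125, 109 and 99.2 CPM in CD62L-high and 2.30, 1.28 and 2.16 CPM in CD62L-low libraries. The order of means ran from 137 ± 31.6 CPM in CD62L-high GMPs (SD, n = 3, as for all values of this form) to 1.91 ± 0.56 CPM in CD62L-low CMPs, and the only neighbours in it whose libraries overlapped were CD62L-high GMPs with CD62L-high CMPs and bulk GMPs with CD62L-low GMPs. CD62L-neg GMPs, although sorted as GMPs, thus lay below bulk CMPs in *Ccr2*. *Ccr2* lies on chromosome 9 of mm10 (chr9:124101950-124113557, plus strand).

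*Cx3cr1*, the receptor of the membrane-bound chemokine fractalkine and a marker of the monocyte lineage, was also highest in both CD62L-high populations. It was measured at 30.6, 22.1 and 30.3 CPM in CD62L-high, 12.5, 14.0 and 11.02 CPM in CD62L-low, 5.58, 10.1 and 3.44 CPM in CD62L-neg and 21.4, 14.96 and 14.4 CPM in bulk GMPs. Bulk CMPs held 12.9, 24.2 and 11.7 CPM, CD62L-high CMPs 36.7, 24.6 and 21.3 CPM and CD62L-low CMPs 6.17, 2.30 and 0.27 CPM. The means of CD62L-high GMPs and CD62L-high CMPs, 27.7 ± 4.84 CPM in GMPs and 27.5 ± 8.08 CPM in CMPs, differed by less than the spread of their libraries. In CD62L-low CMPs, replicate 1 held the most *Cx3cr1*.

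*Cxcr4* was the most abundant of the 5 receptors in all 7 populations when levels are divided by exon length. It reached 108 ± 37.2 CPM per kb in CD62L-high GMPs, against 20.3 ± 4.68 for *Ccr2* and 6.14 ± 1.07 for *Cx3cr1*. Its libraries held 272, 152 and 160 CPM in CD62L-high, 117, 100.4 and 117 CPM in CD62L-low, 118, 148 and 119 CPM in CD62L-neg and 117, 107 and 102 CPM in bulk GMPs. In CMPs they held 39.0, 101 and 60.02 CPM in bulk, 125, 106 and 121 CPM in CD62L-high and 48.2, 37.6 and 41.5 CPM in CD62L-low libraries. The range of means was 4.59-fold for *Cxcr4*, against 71.7-fold for *Ccr2* and 9.5-fold for *Cx3cr1*. The 2 libraries far above the others of their population were CD62L-high GMP replicate 1 and bulk CMP replicate 2, both among the libraries with large shares of counts in the 3 gene models.

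*Ccr1* and *Cxcr2* were near the lower limit of what these libraries measure. *Ccr1* was highest in CD62L-neg GMPs, at 8.48, 4.63 and 4.80 CPM, and next in CD62L-high GMPs, at 2.86, 1.78 and 4.42 CPM. These CD62L-neg GMP libraries lay above all others in the series. The other 5 populations held at most 2.16 CPM in any library, and CD62L-low CMPs held 5 counts of *Ccr1* in all. *Cxcr2*, a receptor through which neutrophils respond to CXCL1 and CXCL2, lay between 0.89 and 9.03 CPM in every library. All neighbours in its order of means overlapped, and it was called in none of the comparisons below.

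**Figure D1:**
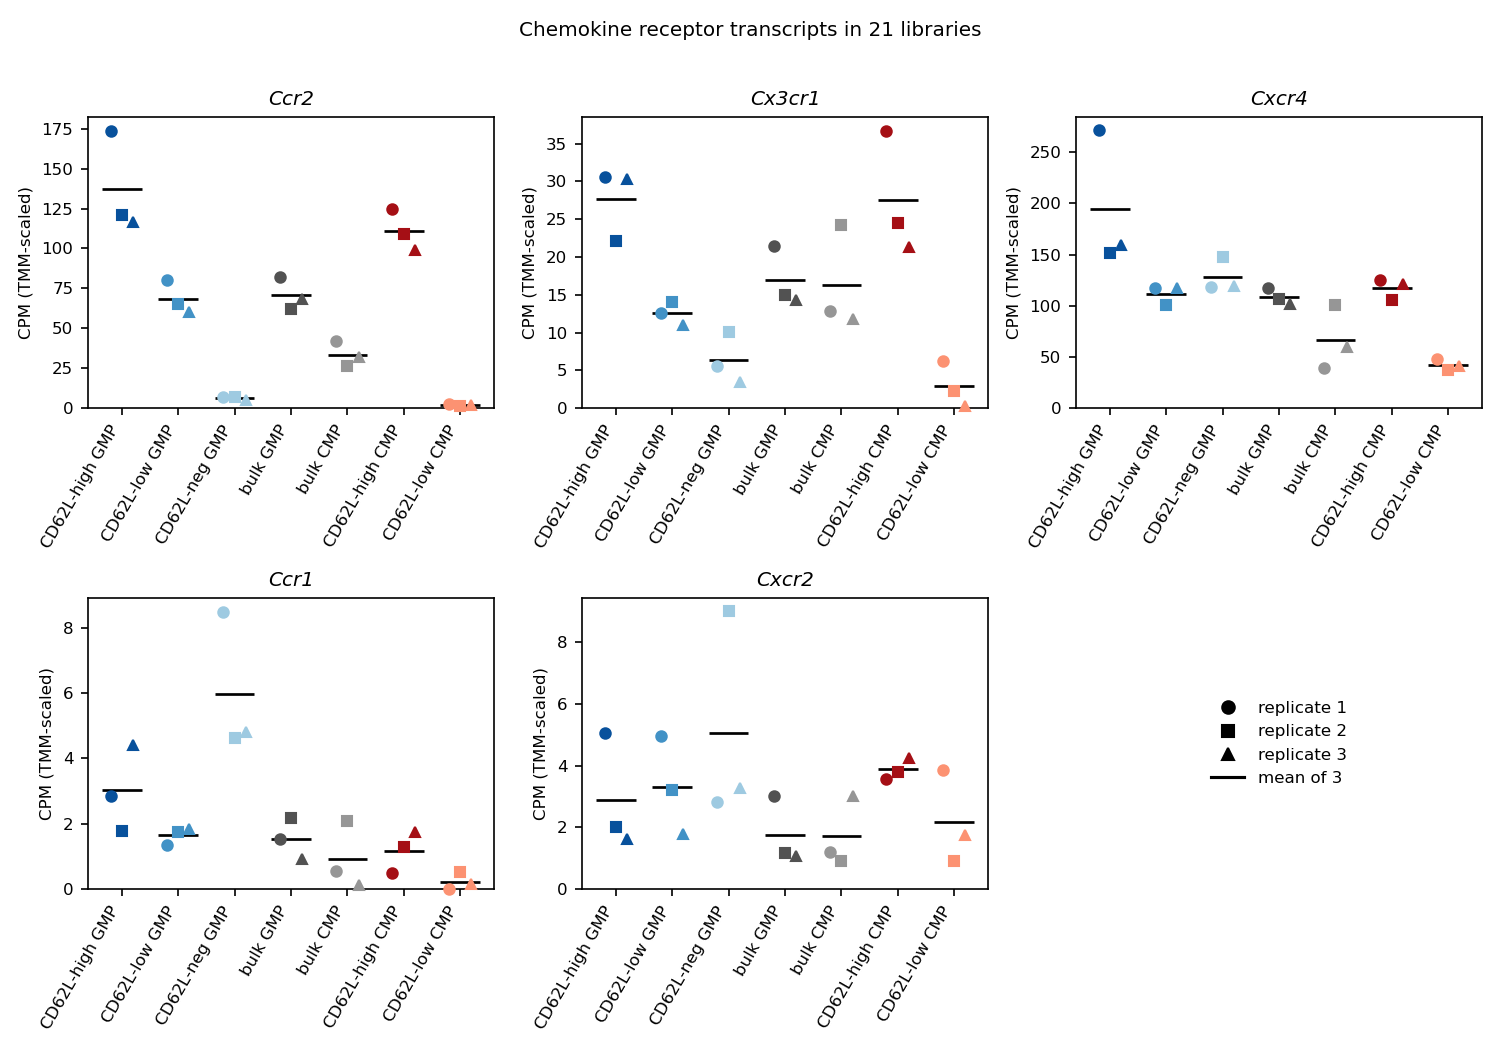
CPM of the 5 receptor genes (y axis, from 0, TMM-scaled) in the 7 populations (x axis), with 1 symbol per library and a bar at the mean of 3. *Ccr2* spans 1.28 to 173 CPM and is lowest in CD62L-neg GMPs among GMPs and in CD62L-low CMPs among CMPs, while *Ccr1* is highest in CD62L-neg GMPs.

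The 4 ligand genes lie in 1 cluster of chromosome 11 (mm10), in the order *Ccl9* (chr11:83572919-83578636), *Ccl6* (chr11:83587882-83593087) and *Ccl3* (chr11:83647844-83649355), all on the minus strand, and *Ccl4* (chr11:83662584-83664683) on the plus strand. All 4 were higher in CD62L-high CMPs than in CD62L-low CMPs (below), so the promoters that could be matched are shown. These are the 250 bases before the RefSeq start on GRCm38.p6, the mm10 assembly, written along the gene. Of the 9 genes 8 had such an entry, and *Ccl4* had none. Capitals mark the longest run of bases that *Ccl6* and *Ccl9* share (GCCCTCCACTTCC), TATAAA in *Ccl9*, and GAGGAA, the core of a site of ETS factors such as PU.1, in *Ccl3*, each on either strand.
Ccl9: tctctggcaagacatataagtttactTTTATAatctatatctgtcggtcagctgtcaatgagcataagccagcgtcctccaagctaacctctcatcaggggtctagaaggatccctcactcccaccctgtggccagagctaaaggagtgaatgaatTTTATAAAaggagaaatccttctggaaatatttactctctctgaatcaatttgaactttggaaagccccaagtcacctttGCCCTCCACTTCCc
Ccl6: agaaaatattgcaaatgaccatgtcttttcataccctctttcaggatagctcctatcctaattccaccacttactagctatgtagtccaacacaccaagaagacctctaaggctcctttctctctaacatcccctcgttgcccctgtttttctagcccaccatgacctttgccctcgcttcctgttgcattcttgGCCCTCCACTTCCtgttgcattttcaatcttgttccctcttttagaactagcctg
Ccl3: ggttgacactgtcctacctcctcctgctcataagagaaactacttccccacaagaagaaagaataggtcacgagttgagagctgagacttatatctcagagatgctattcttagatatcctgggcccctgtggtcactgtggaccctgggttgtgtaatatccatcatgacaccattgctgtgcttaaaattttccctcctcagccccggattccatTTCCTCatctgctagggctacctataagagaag

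These promoters lie at chr11:83578637-83578886 for *Ccl9*, chr11:83593088-83593337 for *Ccl6* and chr11:83649379-83649628 for *Ccl3*, all on the minus strand. The 13 shared bases begin 55 bases before the start of *Ccl6* and 14 before that of *Ccl9*. They occur in 3 of 32851 promoters of this length, which include those of *Ccl6* and *Ccl9* from which the run was taken. This comparison was chosen after the sequences were seen. GAGGAA was found in 3 of the 8 promoters (*Ccl3*, *Ccr1* and *Cxcr2*) and in 23.2% of all promoters, and TATAAA in 2 of 8 (*Ccl9* and *Cxcr4*) and in 12.4% of all. TTGCNNAA, a site of C/EBP factors, was found in 0 of 8 and in 9.56% of all.

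*Ccl3* and *Ccl4* were highest in bulk CMPs. *Ccl3* was measured at 233, 521 and 225 CPM in bulk, 108, 146 and 151 CPM in CD62L-high and 32.1, 7.78 and 5.67 CPM in CD62L-low CMPs. In GMPs it was at 79.8, 57.4 and 68.5 CPM in CD62L-high, 42.6, 80.6 and 67.8 CPM in CD62L-low, 31.2, 39.1 and 34.995 CPM in CD62L-neg and 129.8, 103.5 and 94.4 CPM in bulk libraries. No bulk CMP library overlapped any library of another population, and bulk GMPs lay above all 3 of their fractions. Per kb of exon, *Ccl3* was the most abundant of the 9 genes in bulk CMPs, at 426 ± 220.1 CPM per kb.

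*Ccl4* followed a similar order in CMPs and a different one in GMPs. Bulk CMPs held 114, 335 and 118 CPM, CD62L-high CMPs 44.8, 51.3 and 73.1 CPM and CD62L-low CMPs 24.1, 12.6 and 7.57 CPM. In GMPs, CD62L-high libraries were the lowest at 6.28, 8.37 and 8.36 CPM, with 11.9, 18.5 and 17.7 CPM in CD62L-low, 19.8, 20.7 and 17.5 CPM in CD62L-neg and 26.3, 18.8 and 22.7 CPM in bulk GMPs. *Ccl4* was thus lowest in the GMP fraction in which *Ccr2* was highest. For both genes, bulk CMP replicate 2 was far above the other 2 bulk CMP libraries, which still lay above every library of CD62L-high CMPs.

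*Ccl9* lay between 72.1 and 113 CPM in the libraries of 6 populations and was lower in the seventh. Its libraries held 89.0, 73.2 and 72.1 CPM in CD62L-high, 95.9, 90.6 and 86.4 CPM in CD62L-low, 77.0, 106 and 92.3 CPM in CD62L-neg and 92.7, 85.8 and 81.3 CPM in bulk GMPs. Bulk CMPs held 113, 104 and 106 CPM and CD62L-high CMPs 95.9, 100.3 and 109 CPM. CD62L-low CMPs held 39.3, 17.0 and 9.997 CPM and overlapped none of the others. *Ccl6*, the neighbouring gene, was also lowest in this population, with 0.24, 0.00 and 0.14 CPM from 3 counts in all. Elsewhere its libraries held 8.24, 7.19 and 4.55 CPM in CD62L-high, 7.11, 2.87 and 4.26 CPM in CD62L-low, 5.27, 2.04 and 3.20 CPM in CD62L-neg and 4.31, 3.39 and 2.44 CPM in bulk GMPs, 1.87, 2.99 and 1.57 CPM in bulk CMPs and 5.92, 5.46 and 7.91 CPM in CD62L-high CMPs. Of the genes on either side of the cluster, *Taf15*, an RNA-binding protein gene 66.2 kb from *Ccl9*, averaged 73.0 to 93.4 CPM in the 7 populations. *Heatr6*, 89.0 kb from *Ccl4*, averaged 33.3 to 43.7 CPM. Some closer genes varied at low levels. *Wfdc17*, 39.3 kb from *Ccl4*, averaged 3.64 CPM in bulk, 2.36 CPM in CD62L-high and 0.16 CPM in CD62L-low CMPs. In GMPs its highest mean was 0.26 CPM, in CD62L-high GMPs. *Wfdc21*, 82.3 kb from *Ccl4*, averaged 5.13 CPM in CD62L-neg and 0.09 CPM in CD62L-high GMPs. *Ccl5* averaged 1.58 CPM in CD62L-low and 0.36 CPM in CD62L-high CMPs.

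**Figure D2:**
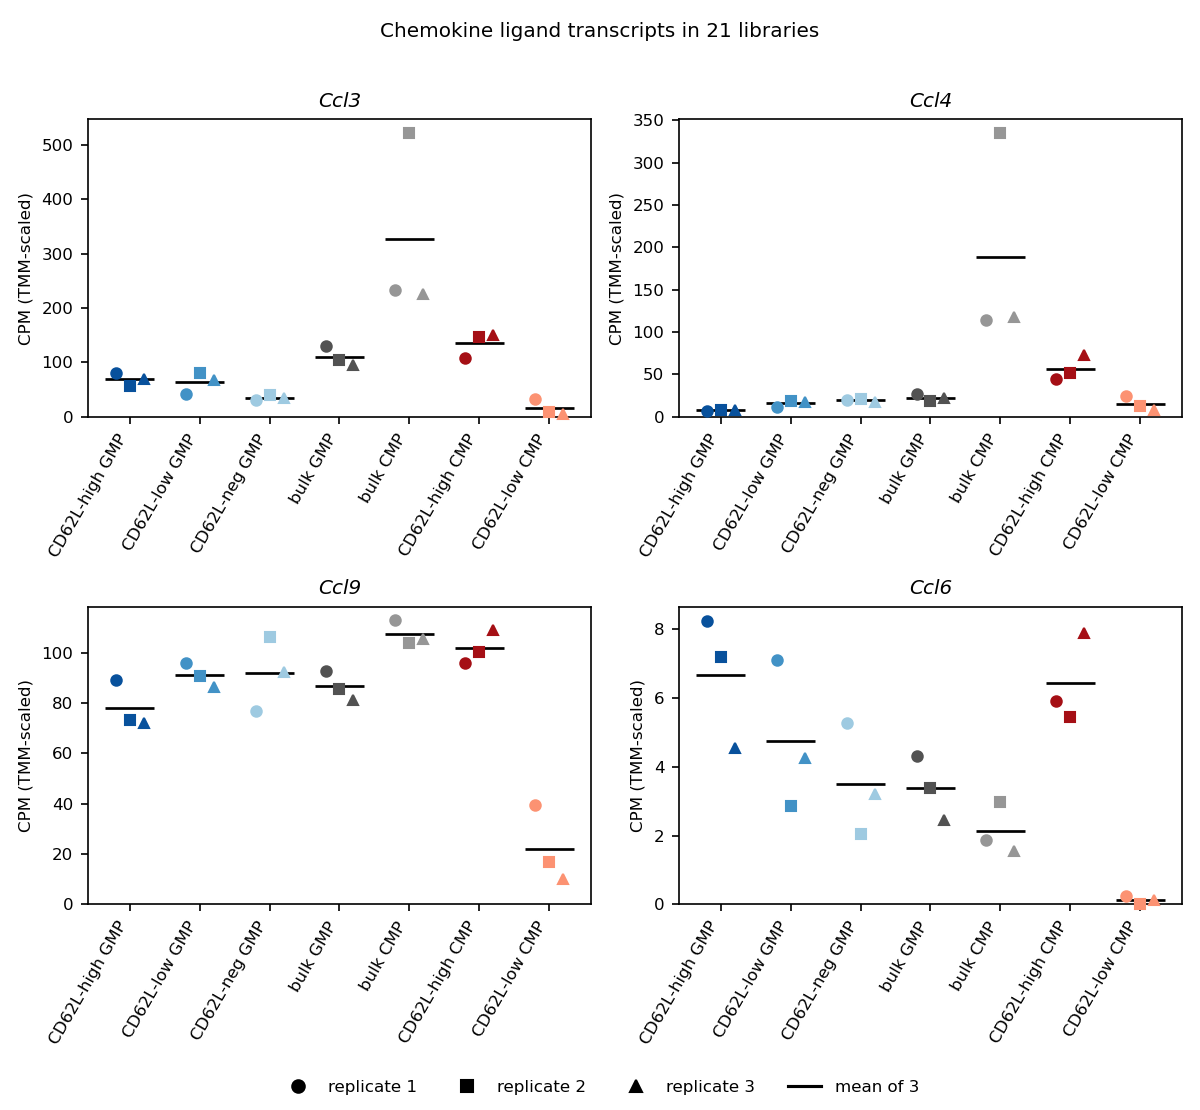
CPM of the 4 ligand genes (y axis, from 0, TMM-scaled) in the 7 populations (x axis), with 1 symbol per library and a bar at the mean of 3. *Ccl3* and *Ccl4* peak in bulk CMPs, with replicate 2 at 521 and 335 CPM, and *Ccl9* and *Ccl6* are lowest in CD62L-low CMPs.

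The first comparison asked how CMPs differ with CD62L. In CD62L-high CMPs, 7 of the 9 genes were higher than in CD62L-low CMPs and 0 were lower, where 5.95% of all 13611 genes tested were higher and 5.69% lower. A gene was called when it differed more than 2-fold with an adjusted p below 0.05 (edgeR quasi-likelihood test with Benjamini-Hochberg adjustment, as for all adjusted p-values here). *Ccr2* rose by a log2 fold change of 5.84 ± 0.26 (SE, adjusted p = 2.14e-09), *Cx3cr1* by 3.20 ± 0.56 (adjusted p = 0.00072) and *Cxcr4* by 1.45 ± 0.25 (adjusted p = 0.000651). Of the ligands, *Ccl3* rose by 3.13 ± 0.51 (adjusted p = 0.000363), *Ccl9* by 2.18 ± 0.32 (adjusted p = 0.000172) and *Ccl4* by 1.91 ± 0.43 (adjusted p = 0.00502). For *Ccl6*, whose 3 counts in CD62L-low CMPs make a fitted fold uncertain, the ratio of scaled counts was 50.8, with a 95% counting interval of 17.2 to 248 (adjusted p = 3.66e-05). The libraries of the 2 populations overlapped for none of these 7 genes, where 22.2% of all genes were higher and 18.7% lower without overlap. Without CD62L-low CMP replicate 1, the log2 fold changes were larger, at 4.31 for *Ccl3*, 4.38 for *Cx3cr1*, 2.90 for *Ccl9*, 2.47 for *Ccl4* and a fitted 6.37 for *Ccl6*, against 5.52 with it. *Ccr1* had 1.16 ± 0.64 CPM in CD62L-high and 0.22 ± 0.26 CPM in CD62L-low CMPs (adjusted p = 0.175), and *Cxcr2* had 3.87 ± 0.36 CPM in CD62L-high and 2.17 ± 1.53 CPM in CD62L-low CMPs (adjusted p = 0.472).

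Markers of other cells moved with the same sort. The sum of 8 markers of mature monocytes and macrophages was 34.7 to 40.4 CPM in CD62L-high and 6.25 to 12.0 CPM in CD62L-low CMPs, and most of it was *Cd68*. Of the 5 tested, 3 were higher and 0 lower, where 5.95% of all genes were higher and 5.69% lower. The complement genes *C1qa*, *C1qb* and *C1qc* stayed at or below 1.501 CPM in every library of both. The 6 dendritic cell markers summed to 18.3 to 23.4 CPM in CD62L-high and 0.27 to 1.94 CPM in CD62L-low CMPs. In the other direction, 5 megakaryocyte markers summed to 12.1 to 16.7 CPM in CD62L-high and 578 to 686 CPM in CD62L-low CMPs, and 5 erythroid markers to 0.08 to 5.56 CPM in CD62L-high and 49.9 to 61.5 CPM in CD62L-low CMPs. The 6 basophil and mast cell markers were at 43.7 to 65.9 CPM in CD62L-high and 698 to 728 CPM in CD62L-low CMPs, with 1 higher and 5 lower. The part of these cells in the differences was not tested, and in bulk RNA fewer cells with a transcript and less transcript per cell cannot be told apart.

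Bulk CMPs were set against their fractions after the levels had been seen. Against CD62L-high CMPs, *Ccl4* was higher in bulk CMPs by a log2 fold change of 1.75 ± 0.41 (adjusted p = 0.0172) and *Ccr2* lower at -1.70 ± 0.20 (adjusted p = 9.06e-05), so 1 of 9 was higher and 1 lower, where 3.23% and 0.977% of all genes were. *Ccl3* was at 326 ± 169 CPM in bulk and 135 ± 23.4 CPM in CD62L-high CMPs but was not called (log2 fold change 1.29 ± 0.46, adjusted p = 0.107). Without CD62L-low CMP replicate 1, which is in the fit but not in the comparison, *Ccl3* was called at 1.27 (adjusted p = 0.0173). It was not called without bulk CMP replicate 2, which held 521 CPM of *Ccl3* against 233 and 225 CPM in the other bulk CMP libraries. Without bulk CMP replicate 2 the log2 fold change of *Ccl4* was 1.06, and *Cxcr4* (-1.23, adjusted p = 8.75e-06) and *Ccl6* (-1.88, adjusted p = 0.0321) were called lower. The call of *Ccl4* was lost without CD62L-high CMP replicate 1 or replicate 2. Against CD62L-low CMPs, 6 of 9 were higher in bulk CMPs and 0 lower (4.24% and 1.96% of all genes), with *Ccl3* at 4.41 ± 0.53 (adjusted p = 7.78e-05), *Ccr2* at 4.13 ± 0.26 (adjusted p = 2.13e-07), *Ccl4* at 3.66 ± 0.45 (adjusted p = 9.18e-05), *Cx3cr1* at 2.42 ± 0.57 (adjusted p = 0.0136) and *Ccl9* at 2.28 ± 0.33 (adjusted p = 0.000347). *Ccl6* was the sixth, with a ratio of 15.3 (95% counting interval 4.82 to 77.5, adjusted p = 0.00303). Without bulk CMP replicate 2, *Ccl3* stood at 3.89 and *Ccl4* at 2.95, and without CD62L-low CMP replicate 1 *Ccl3* stood at 5.59, *Ccl4* at 4.21, *Cx3cr1* at 3.59, *Ccl9* at 2.99 and *Ccl6* at a fitted 4.74, against 3.90 with it. The *Cx3cr1* call was lost without CD62L-low CMP replicate 2.

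Immediate early genes, which cells switch on within minutes of stimulation or handling, moved with *Ccl3* and *Ccl4* in part. A sum of 8 of them was 4385 to 4884 CPM in bulk, 1836 to 2138 CPM in CD62L-high and 4486 to 5750 CPM in CD62L-low CMPs. Of the 8, 7 were higher in bulk than in CD62L-high CMPs, where 3.23% of all genes were. CD62L-low CMPs thus held these genes at a level that overlapped bulk CMPs, and *Ccl3* at the lowest level of the 7 populations. *Atf3*, a stress-induced factor on this list, was at 47.5 to 125 CPM in bulk CMPs, against 28.8 to 42.1 CPM in CD62L-high and 29.9 to 42.0 CPM in CD62L-low CMPs. The part of handling in the levels of *Ccl3* and *Ccl4* was not tested.

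Among GMPs, *Ccr2* and *Cx3cr1* were higher and *Ccl4* lower at high CD62L. In CD62L-high GMPs, *Ccr2* was higher than in CD62L-neg GMPs by a log2 fold change of 4.40 ± 0.21 (adjusted p = 1.37e-10) and *Cx3cr1* by 2.11 ± 0.48 (adjusted p = 0.00398), while *Ccl4* fell by 1.33 ± 0.31 (adjusted p = 0.00443). These were 2 of 9 genes higher and 1 lower, where 4.69% and 6.50% of the 14168 genes tested were. Their libraries did not overlap, where 15.7% of all genes were higher and 17.4% lower without overlap. Without CD62L-high GMP replicate 1 the log2 fold changes were 4.20 for *Ccr2*, 2.04 for *Cx3cr1* and -1.19 for *Ccl4*. *Cxcr4*, at 195 ± 67.3 CPM in CD62L-high and 128 ± 16.9 CPM in CD62L-neg GMPs, had a log2 fold change of 0.60 ± 0.19 (adjusted p = 0.0328), under the fold threshold. *Ccl9* had 78.1 ± 9.48 CPM in CD62L-high and 91.8 ± 14.6 CPM in CD62L-neg GMPs and was not called (adjusted p = 0.64). *Ccl3* had 68.5 ± 11.2 CPM in CD62L-high and 35.1 ± 3.97 CPM in CD62L-neg GMPs (0.97 ± 0.37, adjusted p = 0.0775). *Ccl6* had 6.66 ± 1.90 CPM in CD62L-high and 3.50 ± 1.64 CPM in CD62L-neg GMPs (0.92 ± 0.45, adjusted p = 0.173). Neither was called, though the *Ccl3* libraries did not overlap. Of the 9 genes, 4 were higher and 2 lower without overlap.

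In CD62L-low GMPs, *Ccr2* was higher than in CD62L-neg GMPs by a log2 fold change of 3.41 ± 0.20 (adjusted p = 1.69e-09) and *Ccr1* fell by 1.85 ± 0.51 (adjusted p = 0.028), 1 of 9 in each direction against 2.24% and 2.23% of all genes. The *Ccr1* call was lost when any 1 of CD62L-neg GMP replicate 1 and the 3 CD62L-low GMP libraries was left out. *Ccl3* was at 0.87 ± 0.20 (adjusted p = 0.00839), under the fold threshold, and was called without CD62L-low GMP replicate 1 (1.08, adjusted p = 0.000811). *Cx3cr1* was called without CD62L-neg GMP replicate 2 (1.48, adjusted p = 0.0042). CD62L-high GMPs were then set against CD62L-low GMPs, where *Cx3cr1* rose by 1.13 ± 0.21 (adjusted p = 0.0116) and *Ccl4* fell by 1.07 ± 0.24 (adjusted p = 0.0269), again 1 of 9 in each direction, against 0.432% and 0.826% of all 13192 genes. *Ccr2* had a log2 fold change of 0.98 ± 0.17 (adjusted p = 0.00617) and *Cxcr4* of 0.78 ± 0.18 (adjusted p = 0.0346), both under the fold threshold. Neither overlapped (overlap was absent for 10.4% of all genes in the higher and 9.18% in the lower direction), though for *Cxcr4* replicate 1 of CD62L-high GMPs, at 272 CPM, was far above the rest. *Ccr2* passed the threshold, at 1.05 to 1.11, without CD62L-low GMP replicate 1, CD62L-high GMP replicate 2 or CD62L-high GMP replicate 3. The *Cx3cr1* call was lost without CD62L-low GMP replicate 1 or replicate 3. The *Ccl4* call was lost without CD62L-low GMP replicate 2 or replicate 3, without bulk GMP replicate 3 and without CD62L-high GMP replicate 1.

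CD62L-neg GMPs differed from bulk GMPs by less *Ccr2* and less *Ccl3*. *Ccr2* fell by 3.45 ± 0.23 on the log2 scale (adjusted p = 4.68e-06) and *Ccl3* by 1.64 ± 0.30 (adjusted p = 0.00636), 2 of 9 lower and 0 higher, against 1.90% lower and 1.97% higher of all 13498 genes. *Cx3cr1* was at 6.38 ± 3.42 CPM in CD62L-neg and 16.9 ± 3.92 CPM in bulk GMPs (adjusted p = 0.0717), and *Ccr1* at 5.97 ± 2.17 CPM in CD62L-neg and 1.53 ± 0.62 CPM in bulk GMPs (adjusted p = 0.161). Neither gene's libraries overlapped, where 15.4% of all genes were lower and 14.6% higher without overlap. Both passed the test when bulk CMP replicate 2, which is in the fit but not in the comparison, was left out, with log2 fold changes of -1.39 for *Cx3cr1* (adjusted p = 0.00296) and 1.97 for *Ccr1* (adjusted p = 0.014), and *Cx3cr1* also without CD62L-neg GMP replicate 2 (-1.90, adjusted p = 0.0305).

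Markers of eosinophils and basophils were highest in CD62L-neg GMPs, as *Ccr1* was. The 5 eosinophil markers summed to 1192 to 1838 CPM in CD62L-neg GMPs, against 119 to 126 CPM in bulk GMPs, 2.15 to 4.88 CPM in CD62L-high and 4.83 to 6.89 CPM in CD62L-low GMPs. Of the 4 tested, 3 were higher in CD62L-neg than in bulk GMPs, where 1.97% of all genes were. Most of the sum was *Prg2* and *Epx*, which code for granule proteins, while *Ccr3*, the eotaxin receptor of mature eosinophils, had 1 count in CD62L-neg GMPs. The 6 basophil and mast cell markers summed to 837 to 1457 CPM in CD62L-neg GMPs, against 161 to 172 CPM in bulk GMPs, and 6 of 6 were higher, against the same 1.97% of all genes. They were at 4.08 to 10.8 CPM in CD62L-high GMPs, the population with the next most *Ccr1*. In CD62L-low CMPs, the population with the least, they were at 698 to 728 CPM. Of the 6, 5 were higher in CD62L-neg GMPs than in CD62L-low CMPs and 1 lower, against 6.75% and 6.66% of all genes. The 5 eosinophil markers summed to 0 to 2.68 CPM in CD62L-low CMPs. The monocyte and macrophage markers fell on the same side as *Ccr2*, with 72.3 to 90.6 CPM in CD62L-high, 49.3 to 62.0 in CD62L-low, 24.0 to 28.1 in CD62L-neg and 63.8 to 71.4 CPM in bulk GMPs. Of these 8 markers, 2 were at 0 in all 3 libraries of CD62L-high GMPs, 2 in CD62L-low GMPs and 1 in CD62L-neg GMPs. *C1qb* was among them in each fraction. A mean above 1 CPM was reached by 5 of the 8 in CD62L-high, 4 in CD62L-low and 3 in CD62L-neg GMPs. The part of these cells in the values of *Ccr1* and *Ccr2* was not tested.

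**Figure D3:**
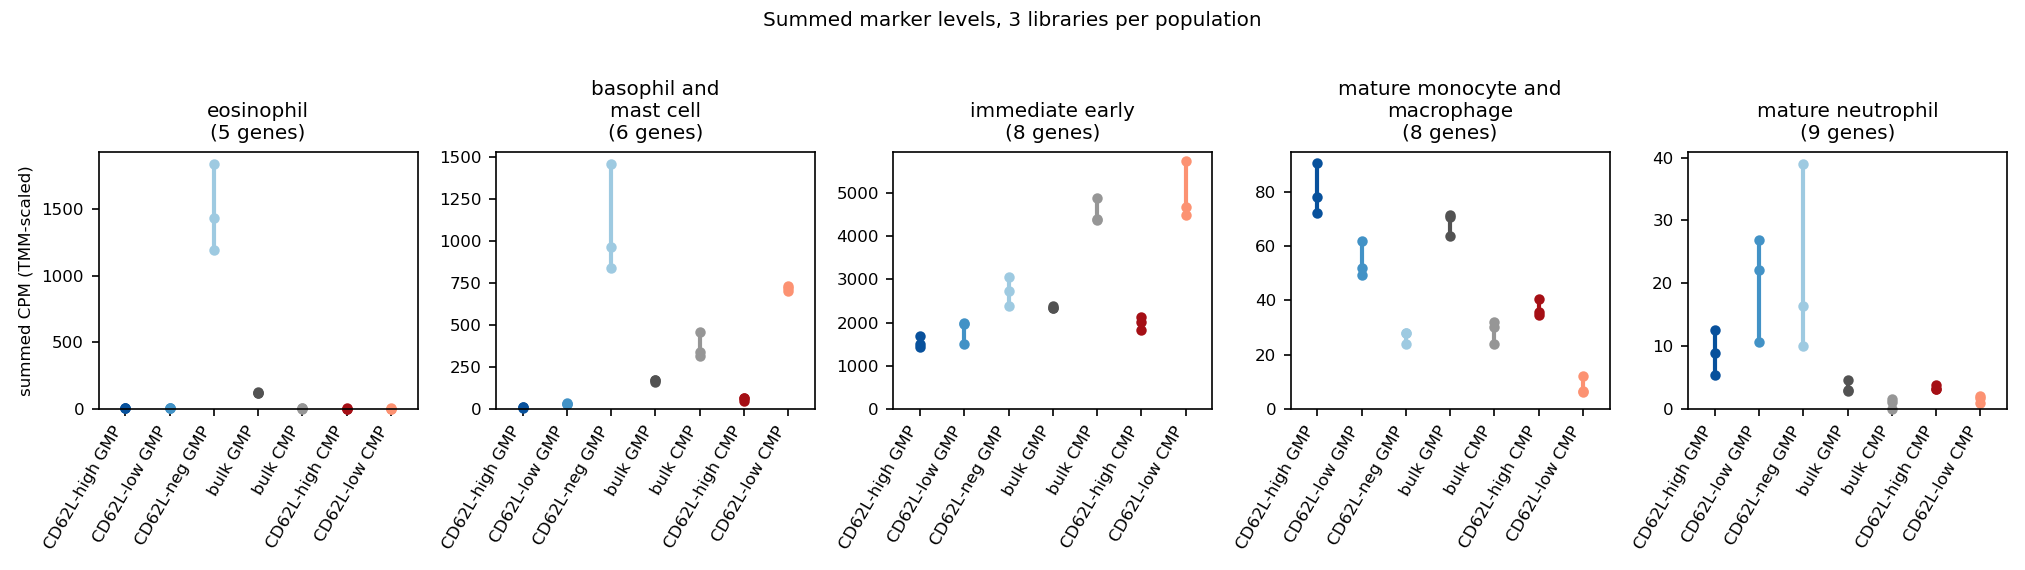
Summed CPM (y axis, from 0, TMM-scaled) of 5 marker lists in the 7 populations (x axis), with a point for each of 3 libraries joined by a line. Eosinophil markers reach 1192 to 1838 CPM in CD62L-neg GMPs, immediate early genes are highest in CD62L-low and bulk CMPs, and mature neutrophil markers stay at or below 39.0 CPM.

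Set against CMPs, GMPs held less *Ccl4* in bulk and at high CD62L. In bulk GMPs *Ccl4* fell by 3.08 ± 0.43 on the log2 scale relative to bulk CMPs (adjusted p = 0.000149) and *Ccl3* by 1.60 ± 0.46 (adjusted p = 0.0233), while *Ccr2* rose by 1.05 ± 0.19 (adjusted p = 0.00142). These were 1 of 9 higher and 2 lower, against 3.89% and 8.52% of all genes. Without bulk CMP replicate 2, *Ccl4* was at -2.38, *Ccl3* at -1.09 and *Cxcr4* was called higher at 1.12 (adjusted p = 9.26e-06), but *Ccr2* was no longer called. The *Ccr2* call was also lost without bulk GMP replicate 1, and the *Ccl3* call without any 1 of the bulk GMP libraries. In CD62L-high GMPs, *Ccl4* was the only one of the 9 called relative to CD62L-high CMPs, with a log2 fold change of -2.87 ± 0.31 (adjusted p = 5.08e-06), 1 of 9 lower and 0 higher, against 5.58% and 2.68% of all genes. *Cxcr4*, at 195 ± 67.3 CPM in CD62L-high GMPs and 117 ± 10.1 CPM in CD62L-high CMPs, did not overlap but stayed under the fold threshold (0.73 ± 0.19, adjusted p = 0.0137). *Ccl3*, at 68.5 ± 11.2 CPM in CD62L-high GMPs and 135 ± 23.4 CPM in CD62L-high CMPs, did not overlap either (-0.98 ± 0.36, adjusted p = 0.0853). Without overlap, 2 of the 9 genes were higher and 3 lower, against 15.1% and 16.7% of all genes. These include *Ccr1* (1.36 ± 0.65, adjusted p = 0.191) and *Ccl9* (-0.38 ± 0.29, adjusted p = 0.436), which were not called. For *Ccr2* the 2 CD62L-high populations had a log2 difference of 0.31 ± 0.18 (adjusted p = 0.294), for *Cx3cr1* of 0.01 ± 0.45 (adjusted p = 0.996) and for *Ccl6* of 0.05 ± 0.44 (adjusted p = 0.966).

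At the low end of CD62L, most of the 9 genes were higher in GMPs. In CD62L-neg GMPs, 6 of 9 genes were higher than in CD62L-low CMPs and 0 lower, against 6.75% and 6.66% of all genes. *Ccr1* rose by 4.74 ± 0.84 on the log2 scale (adjusted p = 0.000344), *Ccl9* by 2.05 ± 0.31 (adjusted p = 6.75e-05), *Ccr2* by 1.75 ± 0.27 (adjusted p = 9.36e-05), *Cxcr4* by 1.59 ± 0.20 (adjusted p = 8.98e-06) and *Ccl3* by 1.20 ± 0.39 (adjusted p = 0.0335). *Ccl6* had a ratio of 27.6 (95% counting interval 9.25 to 136, adjusted p = 7.14e-05). *Ccl3* was the one of the 6 whose libraries overlapped (21.2% of all genes were higher and 20.4% lower without overlap), since CD62L-low CMP replicate 1 had 32.1 CPM, and its log2 fold change was 2.38 without that library. *Ccl9* was then at 2.76, *Ccr1* at 4.15 and *Ccl6* at a fitted 5.54, against 4.68 with it. The call of *Ccl3* was lost without CD62L-low CMP replicate 2 or replicate 3 and without any 1 of the CD62L-neg GMP libraries. *Cx3cr1* was called only without CD62L-low CMP replicate 1 (2.28, adjusted p = 0.00933) among the left-out libraries.

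The change with CD62L was itself compared between GMPs and CMPs, as the log2 fold change of CD62L-high over CD62L-neg GMPs minus that of CD62L-high over CD62L-low CMPs. It was lower in GMPs for 5 of 9 genes and higher for 0, where 6.08% and 3.04% of all genes were at an adjusted p under 0.05. All 4 ligands were among the 5. The difference was -4.63 ± 0.86 for *Ccl6* (adjusted p = 0.00173), whose CD62L-low CMP libraries hold 3 counts, -3.25 ± 0.43 for *Ccl4* (adjusted p = 7.69e-05), -2.43 ± 0.42 for *Ccl9* (adjusted p = 0.001) and -2.17 ± 0.54 for *Ccl3* (adjusted p = 0.0145). *Ccl4* was the only ligand called on both sides, lower in CD62L-high GMPs and higher in CD62L-high CMPs. *Ccr2* differed by -1.45 ± 0.33 (adjusted p = 0.00814), with a rise in both. Without CD62L-low CMP replicate 1, the differences were -3.36 for *Ccl3*, -3.81 for *Ccl4*, -3.15 for *Ccl9*, -5.49 for *Ccl6* and -1.62 for *Ccr2*, and *Cx3cr1* (-2.27, adjusted p = 0.0489) and *Cxcr4* (-0.97, adjusted p = 0.0476) were called as well. Without CD62L-high GMP replicate 1, *Cxcr4* was called at -1.17 (adjusted p = 0.000254) in addition to the 5. *Ccr1*, at -3.38 ± 1.06 (adjusted p = 0.0552), was called without any 1 of CD62L-low CMP replicate 2, CD62L-high CMP replicate 1 and CD62L-high GMP replicate 3. CD62L-neg GMPs and CD62L-low CMPs are cut at different points of the CD62L range, and the part of this in the difference cannot be told apart from the progenitor type.

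**Figure D4:**
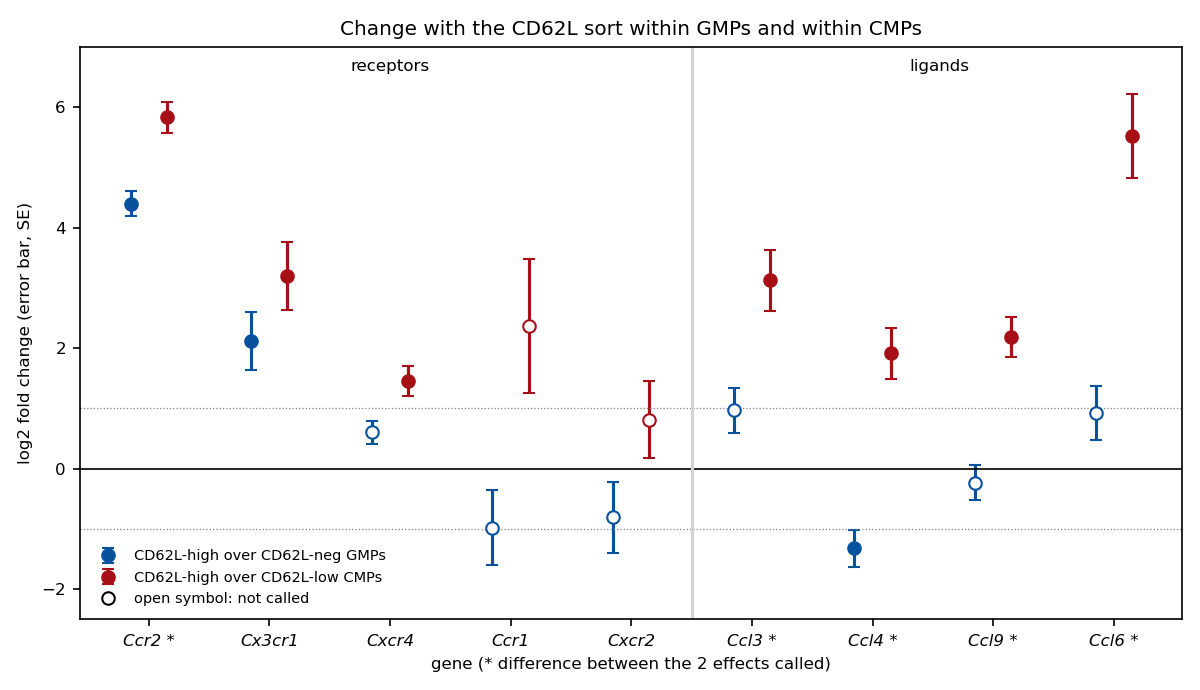
Log2 fold change (y axis, error bar SE) of the 9 genes (x axis) for CD62L-high over CD62L-neg GMPs and CD62L-high over CD62L-low CMPs, with open symbols where a gene was not called and dotted lines at a 2-fold change. *Ccr2* is high in both, at 4.40 and 5.84, whereas *Ccl4* is at -1.33 in GMPs and 1.91 in CMPs.

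Taken singly, most other genes of the chemokine system were at or near 0 in these cells. Of 19 further receptor genes 2 passed the filter on low counts in each fit, and of 34 further ligand genes 5 to 9 did. The other receptors summed to 3.75 to 6.42 CPM in CD62L-high GMPs and to 5.90 to 9.08 CPM in CD62L-high CMPs, while the 5 receptors above summed to 299 to 484 CPM in CD62L-high GMPs and 244 to 290 CPM in CD62L-high CMPs. In CD62L-low CMPs the other receptors summed to 11.2 to 17.3 CPM and the 5 to 42.6 to 60.5 CPM. In bulk CMPs the other receptors summed to 10.3 to 36.1 CPM. The other ligands, *Pf4* (below) among them, summed to 116 to 161 CPM in CD62L-low CMPs. The 4 ligands above summed to 23.4 to 95.7 CPM there. *Ccrl2*, an atypical receptor that binds chemerin, went the opposite way to *Ccr2* in CMPs, with 2.75 ± 0.57 CPM in CD62L-high and 12.7 ± 2.45 CPM in CD62L-low CMPs (log2 fold change -2.22 ± 0.44, adjusted p = 0.00189). It was also lower in CD62L-high than in CD62L-neg GMPs, with 3.37 ± 0.33 CPM in CD62L-high and 10.5 ± 4.29 CPM in CD62L-neg GMPs (-1.63 ± 0.34, adjusted p = 0.0021). *Cxcl12*, the ligand of CXCR4, averaged at most 1.18 CPM in any population.

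Among the other ligands, between CD62L-high and CD62L-low CMPs 1 of 7 ligands tested was higher and 2 lower, where 5.95% and 5.69% of all genes were. The platelet chemokine gene *Pf4* had 0.31 ± 0.27 CPM in CD62L-high and 109 ± 16.6 CPM in CD62L-low CMPs (-8.32 ± 0.42, adjusted p = 4.05e-09), and the neutrophil attractant *Cxcl2* had 1.19 ± 0.58 CPM in CD62L-high and 7.12 ± 3.12 CPM in CD62L-low CMPs (-2.59 ± 0.41, adjusted p = 0.000327). *Cxcl2* was highest in bulk CMPs, like *Ccl3* and *Ccl4*, at 21.3 ± 1.17 CPM, and was lower in bulk GMPs at 8.09 ± 1.26 CPM (-1.42 ± 0.36, adjusted p = 0.0121). In CD62L-high GMPs it was at 0.65 ± 0.39 CPM, against 3.48 ± 0.46 CPM in CD62L-low GMPs (-2.44 ± 0.48, adjusted p = 0.0138) and 9.54 ± 1.54 CPM in CD62L-neg GMPs (-3.87 ± 0.56, adjusted p = 6.1e-05). *Cxcl2* thus shared with *Ccl4* the lower level in CD62L-high GMPs but not the direction in CMPs. The transmembrane chemokine gene *Cxcl16*, the 1 higher ligand, had 1.78 ± 0.67 CPM in CD62L-high and 0.04 ± 0.07 CPM in CD62L-low CMPs (82 against 1 counts, a ratio of 43.2 with a 95% counting interval of 7.54 to 1727, adjusted p = 0.0211).

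All 31 genes of a list drawn up for chemokine receptor signalling were tested in each fit. The list also holds *Cd74*, itself a receptor (below). In CD62L-high against CD62L-low CMPs 6 were higher and 3 lower, where 5.95% of all genes were higher and 5.69% lower, with a median log2 fold change of 0.18 against 0.00 over all genes. *Pik3r6* and *Pik3r5*, the adaptor subunits of phosphoinositide 3-kinase γ, were among them. *Pik3r5* had 19.8 ± 1.08 CPM in CD62L-high and 3.66 ± 1.04 CPM in CD62L-low CMPs (2.42 ± 0.25, adjusted p = 5.08e-06), and *Pik3r6* had 9.65 ± 1.90 CPM in CD62L-high and 0.18 ± 0.31 CPM in CD62L-low CMPs (5.71 ± 0.66, adjusted p = 1.42e-05). *Cd74*, the invariant chain of MHC class II and a receptor of the cytokine MIF, had 140 ± 41.3 CPM in CD62L-high and 1.75 ± 1.06 CPM in CD62L-low CMPs (6.28 ± 0.46, adjusted p = 1.53e-07). *Rgs1*, whose product shortens G protein signals, had 109 ± 38.5 CPM in CD62L-high and 318 ± 70.8 CPM in CD62L-low CMPs (-1.56 ± 0.27, adjusted p = 0.000703).

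Several of these genes moved likewise in GMPs. In CD62L-high against CD62L-neg GMPs 6 of 31 were higher and 3 lower, against 4.69% and 6.50% of all genes (median 0.20 against -0.04 over all genes). *Pik3r6* had 43.5 ± 3.21 CPM in CD62L-high and 3.31 ± 0.57 CPM in CD62L-neg GMPs (3.71 ± 0.33, adjusted p = 2.15e-07), and *Frmd4b* had 21.4 ± 3.12 CPM in CD62L-high and 1.23 ± 1.01 CPM in CD62L-neg GMPs (4.11 ± 0.43, adjusted p = 1.49e-06). *Cd74* had 14.0 ± 9.36 CPM in CD62L-high and 2.85 ± 1.24 CPM in CD62L-neg GMPs (2.30 ± 0.46, adjusted p = 0.00134), and the G protein subunit gene *Gng2* rose by 1.53 ± 0.18 (adjusted p = 6.22e-06). *Rgs1* was lower, at 11.1 ± 2.85 CPM in CD62L-high and 88.6 ± 11.1 CPM in CD62L-neg GMPs (-2.99 ± 0.26, adjusted p = 1.46e-07). In CD62L-high against CD62L-low GMPs 2 of 31 were higher and 0 lower, against 0.432% and 0.826% of all genes. They were *Pik3r6* (1.28 ± 0.15, adjusted p = 0.000703) and *Frmd4b* (1.14 ± 0.25, adjusted p = 0.0241). *Rgs1* was lower in bulk GMPs than in bulk CMPs, with 46.6 ± 3.48 CPM in bulk GMPs and 316 ± 100.3 CPM in bulk CMPs (-2.78 ± 0.29, adjusted p = 8.57e-06), where 2 of the 31 were higher and 4 lower, against 3.89% and 8.52% of all genes.

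The genes most like each member were sought by Pearson correlation of log2(CPM + 1) over the 21 libraries, among 8806 genes with a mean of at least 10 CPM in some population. The libraries share the sort and the scaling, so these values describe likeness of pattern only. *Ccr2* had the closest companions, with *Hpse* (heparanase, r = 0.985), *F13a1* (coagulation factor XIII, r = 0.981) and *Il6ra* (the interleukin 6 receptor, r = 0.981). *Cx3cr1* was nearest to *Crybg3* (0.942), *Mpeg1* (0.935), a pore-forming protein of macrophages, and *Coro7* (0.933), and *Cxcr4* to *Ly6e* (0.941), *Tspo* (0.937) and *Emc1* (0.931). Among the ligands, *Ccl3* was nearest to *Cd33* (0.936), *Cd34* (0.911) and *Notch1* (0.906), *Ccl4* to *Runx2* (0.927), *Ptger4* (0.923) and *Clcf1* (0.907), *Ccl9* to *Egln3* (0.949), *Cd53* (0.939) and *Plppr3* (0.932), and *Ccl6* to *Sh3tc1* (0.930), *Tmem229b* (0.920) and *S1pr3* (0.916). The low genes had looser ones, *Ccr1* with *Lpcat4* at 0.861 and *Cxcr2* with *Wbp1* at 0.688. Within the 9, *Ccr2* and *Cx3cr1* were the most alike (0.878), and *Ccl3* was nearer to *Ccl9* (0.809) than to *Ccl4* (0.745).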

How the data were processed

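RNA of 21 sorted samples was sequenced, with 3 libraries for each of 7 populations grouped by the sample labels. The authors deposited whole, unscaled counts per gene, and the submitters' processing notes name bcl2fastq, Trim Galore, HISAT2, HTSeq and mm10, with versions and strand setting not given in the sources used here. The labels name a stranded library kit and the study's methods SMART-Seq. The strand setting bears on *Cx3cr1*, whose exons overlap an antisense gene by 78 bases.

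Of 47643 identifiers 47224 (99.12%) matched a symbol, and the unmatched ones made up no more than 0.0856% of any library. Counts were tested in R 4.3.3 with edgeR 4.0.16 after filterByExpr and TMM scaling (quasi-likelihood F test, Benjamini-Hochberg adjustment over all genes). Calls needed an adjusted p below 0.05 and more than a 2-fold change, and the interaction the adjusted p alone. Separate fits held bulk GMPs with the 3 CMP populations, bulk CMPs with CD62L-neg and bulk GMPs, bulk GMPs with CD62L-low and CD62L-high GMPs, the 4 populations of the interaction, and the 4 GMP populations. SEs were derived from the F statistic. All 9 genes passed every filter. Positions are those of GENCODE on mm10 and promoters those of RefSeq on GRCm38.p6. The scripts were tested on simulated data. Counting intervals (95%) cover counting error only. The 9 genes, the lists and the rule for named genes (called list genes with the largest fold, at most 4 per direction and comparison, with a mean of at least 1 CPM in the higher group, and the 3 most alike per gene) were chosen with earlier results of these data known. Alternatives included DESeq2 1.42.0, other filters and fits, the replicate number as a block and left-out libraries.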

Additional observations from a re-analysis of the deposited data

Results flagged for a closer look

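The change with CD62L differed between GMPs and CMPs by the test of the difference itself (edgeR quasi-likelihood test, Benjamini-Hochberg adjusted over all genes) for 5 of the 9 genes, all lower, where 6.08% of all genes were lower and 3.04% higher. As log2 fold change in GMPs minus that in CMPs, the difference was -1.45 for *Ccr2*, -2.17 for *Ccl3*, -3.25 for *Ccl4*, -4.63 for *Ccl6*, which has 3 counts in CD62L-low CMPs, and -2.43 for *Ccl9*. *Ccr2* rose in CD62L-high cells of both, *Ccl4* fell in GMPs and rose in CMPs, and *Ccl3*, *Ccl6* and *Ccl9* were called in CMPs alone. The uncalled log2 fold changes in GMPs were 0.97 for *Ccl3*, 0.92 for *Ccl6* and -0.23 for *Ccl9*. With 3 libraries per population, single libraries were not tested as outliers.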

How the results depend on the processing

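Of 39 calls of the 9 genes, 29 held in every alternative run and 10 were lost in some, and of 1906 alternative values none that was called changed sign. Beyond the left-out libraries named above, *Ccl3* lost its call with DESeq2 between CD62L-neg GMPs and CD62L-low CMPs and in the difference of CD62L effects (adjusted p = 0.0541 there). The causes of the changes below were not tested. With the adjusted p alone as the rule they were 2444 for CD62L-high against CD62L-low CMPs (1584 with the fold), 2842 for bulk GMPs against bulk CMPs (1690), 409 for CD62L-high against CD62L-low GMPs (166), 2755 for CD62L-high against CD62L-neg GMPs (1586), 2055 for CD62L-high GMPs against CD62L-high CMPs (1169), 3465 for CD62L-neg GMPs against CD62L-low CMPs (1900), 1087 for CD62L-low against CD62L-neg GMPs (608), 977 for bulk against CD62L-high CMPs (573) and 1345 for bulk against CD62L-low CMPs (844). This rule called 4 of the 9 genes in place of 2 in CD62L-high against CD62L-low GMPs, and 2 in place of 1 in CD62L-high GMPs against CD62L-high CMPs. With only the populations compared in the fit, CD62L-neg against bulk GMPs gave 4 of the 9 (2 in the main fit) and 788 genes (522), CD62L-high against CD62L-low GMPs 1 of the 9 (2) and 71 genes, CD62L-high GMPs against CD62L-high CMPs 2 of the 9 (1), bulk against CD62L-high CMPs 1 of the 9 (2) and 262 genes, and bulk against CD62L-low CMPs 4 of the 9 (6), without *Cx3cr1* (adjusted p = 0.128) and *Ccl6* (adjusted p = 0.0606), and 466 genes. Without the low-count filter CD62L-high against CD62L-low GMPs gave 264 genes and bulk against CD62L-high CMPs 882, and DESeq2 gave 286 for CD62L-high against CD62L-low GMPs. In 1 fit of all 21 libraries 1 of the 9 (2) was called in CD62L-high against CD62L-low GMPs, where *Cx3cr1* and *Ccl4* lost their calls (adjusted p = 0.235 and 0.173) and *Ccr2* gained one (1.002, adjusted p = 0.00595), 1 (2) in CD62L-low against CD62L-neg GMPs and 4 (2) in bulk against CD62L-high CMPs.

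With 1 library left out at a time, the calls among the 9 and over all genes ranged from 1 to 3 and 1320 to 1935 for bulk GMPs against bulk CMPs, 2 to 4 and 347 to 827 for CD62L-neg against bulk GMPs, 0 to 3 and 89 to 195 for CD62L-high against CD62L-low GMPs (0 without CD62L-low GMP replicate 3), 1 to 3 and 491 to 732 for CD62L-low against CD62L-neg GMPs, 1 to 4 and 341 to 793 for bulk against CD62L-high CMPs, 5 to 6 and 557 to 948 for bulk against CD62L-low CMPs, 5 to 7 and 1632 to 2106 for CD62L-neg GMPs against CD62L-low CMPs, and 5 to 7 and 945 to 1566 for the difference of CD62L effects. They stayed at 7 for CD62L-high against CD62L-low CMPs.

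Same-numbered libraries did not deviate together in 10 comparisons checked (r from -0.0746 to 0.0570), so the replicate numbers were not taken to pair them. With the number as a replicate block, 7 of the 9 genes and 1510 of all genes were called in CD62L-high against CD62L-low CMPs, and 1 of the 9 in CD62L-low against CD62L-neg GMPs, where *Ccr1* was lost (adjusted p = 0.0549). The block added a call of *Cx3cr1* in CD62L-neg against bulk GMPs (-1.54, adjusted p = 0.0344) and of *Cxcr4* in the difference of CD62L effects (-0.91, adjusted p = 0.0401).

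Depth limited *Ccr1* and *Ccl6* in CMPs, with 5 and 3 counts in CD62L-low CMPs. *Cxcr2*, with 35 to 193 counts per population, was called in none of the comparisons.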
